A study of Mus musculus with 6 samples.

Results

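The small leucine-rich proteoglycans (SLRPs) are a family of secreted matrix proteins, and 10 of their genes were followed here: Dcn, Bgn, Aspn, Ecm2, Fmod, Lum, Prelp, Omd, Ogn and Podn. They were taken by gene symbol from the 54309 genes of the deposited tables, and each gene's estimated reads and TPM (a length-corrected level scaled to the same total in each library) were summed over its transcripts in each library. The family was chosen on earlier results of these data, the female against male comparison of these 6 libraries, in which Fmod had passed the test. Sex differences of the members are therefore descriptions and support nothing. The tissue was distal sciatic nerve, from the left side, of female and male C57BL/6 mice aged 6 to 8 weeks. Each sex had 3 libraries, and each library held nerves pooled from 2 animals 24 h after surgery. No transgene or mutant allele is named in the labels, and sex was the one factor that the labels varied between the groups. A treatment field and the design text name axotomy, the cutting of the nerve, for all 6 libraries, whereas the protocol text attached to them has the nerve exposed but not transected, so whether these nerves were injured cannot be settled from the labels.

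SLRPs carry a core of leucine-rich repeats that binds collagen, and many bear chondroitin, dermatan or keratan sulfate chains. They are known for setting the diameter and spacing of collagen fibrils, for holding growth factors such as TGF-beta, and, once released from the matrix, for binding innate immune receptors. In peripheral nerve the collagen-rich sheaths that surround axons, fascicles and the whole nerve are made largely by fibroblasts, perineurial cells and Schwann cells. Decorin (Dcn), biglycan (Bgn) and asporin (Aspn) form one class, to which Ecm2 is related. Fibromodulin (Fmod), lumican (Lum), PRELP (Prelp) and osteomodulin (Omd) form another, osteoglycin (Ogn, also called mimecan) belongs to a separate class, and podocan (Podn) to a more distant one.

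Most of the genes lie beside another member. By the GENCODE M21 annotation of GRCm38, Prelp and Fmod were adjacent on chromosome 1, on opposite strands. Dcn, Lum and the corneal SLRP gene Kera followed each other on chromosome 10. Ecm2, Aspn, Omd and Ogn stood in a row on chromosome 13, all on the plus strand, while Bgn lay on the X chromosome and Podn on chromosome 4. The 250 bases before the annotated start are shown for 2 neighbouring pairs, because the female means of Fmod and Prelp were both below the male means while the sex differences of Ecm2 and Aspn lay on opposite sides of 0. The sequences are RefSeq's on GRCm38.p6, written 5′ to 3′ on the strand of the gene, at chr1:134037004-134037253 (plus strand) for Fmod, chr1:133921402-133921651 (minus) for Prelp, chr13:49504560-49504809 (plus) for Ecm2 and chr13:49544193-49544442 (plus) for Aspn. Capitals mark matches, on either strand, to the 4 motifs searched: the TATA box (TATAAA), the CCAAT box (spelled as its name), the GC box (GGGCGG) and the AP-1 site (TGANTCA).
Fmod: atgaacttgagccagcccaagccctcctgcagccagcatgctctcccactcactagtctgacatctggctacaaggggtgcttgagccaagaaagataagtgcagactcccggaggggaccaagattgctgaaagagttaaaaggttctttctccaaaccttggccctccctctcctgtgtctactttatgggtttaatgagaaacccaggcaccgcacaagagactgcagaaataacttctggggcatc
Prelp: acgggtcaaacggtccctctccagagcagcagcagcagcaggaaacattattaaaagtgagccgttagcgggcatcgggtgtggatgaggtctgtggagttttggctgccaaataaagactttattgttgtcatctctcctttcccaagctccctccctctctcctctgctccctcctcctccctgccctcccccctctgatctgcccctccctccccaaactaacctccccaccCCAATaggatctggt
Ecm2: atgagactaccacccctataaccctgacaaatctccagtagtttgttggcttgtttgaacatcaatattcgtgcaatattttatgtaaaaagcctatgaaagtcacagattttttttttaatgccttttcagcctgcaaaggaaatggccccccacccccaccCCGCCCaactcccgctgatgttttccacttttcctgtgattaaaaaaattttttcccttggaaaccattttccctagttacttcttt
Aspn: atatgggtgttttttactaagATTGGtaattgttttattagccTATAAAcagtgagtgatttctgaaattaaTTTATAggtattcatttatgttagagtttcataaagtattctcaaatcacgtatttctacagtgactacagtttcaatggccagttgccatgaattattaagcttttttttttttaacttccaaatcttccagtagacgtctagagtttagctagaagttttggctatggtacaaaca

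No searched motif was found in the Fmod window, whose GC content was 51.2%. Prelp's window (55.6% GC) held one CCAAT, 15 to 11 bases before the start. In Ecm2 (40% GC) the only match was the complement of GGGCGG, 87 to 82 bases before the start. Aspn's window was the poorest in GC of the 4, at 30.0%, and held a TATAAA 207 to 202 bases before the start, its complement at 178 to 173 and the complement of CCAAT at 229 to 225. Among all 32851 promoter windows in the RefSeq table the median GC content was 52.4%, and 12.4% held TATAAA, 33.8% CCAAT, 32.7% GGGCGG and 6.75% TGANTCA. These matches describe letters only. Promoter rows were matched for 8 of the 10 members, all but Dcn and Lum.

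Decorin was by far the most abundant SLRP transcript of the nerve. Dcn stood at 2192, 2282 and 2956 TPM in female libraries 1 to 3 and at 3093, 3108 and 3667 TPM in male libraries 1 to 3. With a mean of 2883 TPM over the 6 libraries it ranked 33 among all genes, and it made up 66.4% to 68.6% of the members' summed TPM in every library. Osteoglycin came next at 403, 403 and 621 TPM in females and 739, 666 and 720 TPM in males (mean 592, rank 224). Biglycan, a close relative of decorin, followed with 380, 367 and 343 TPM in females and 367, 394 and 410 TPM in males (mean 377, rank 366). Lumican, known for fibril spacing in the cornea, stood at 158, 192 and 246 TPM in females and 236, 248 and 266 TPM in males (mean 224, rank 611).

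The other 6 members lay at lower but well-counted levels. PRELP, which binds basement membrane heparan sulfate as well as collagen, had a mean of 80.3 TPM. Asporin (44.5), fibromodulin (36.6), Ecm2 (23.9), osteomodulin (20.4) and podocan (13.6) completed the order of mean TPM. Moving down this order, the ranges over the 6 libraries of Dcn and Ogn did not overlap, nor did those of Bgn and Lum, Lum and Prelp, or Prelp and Aspn. Between the remaining neighbours the ranges overlapped. Within each library, however, Ogn exceeded Bgn, Fmod exceeded Ecm2 and Omd exceeded Podn in 6 of 6 libraries, whereas Ecm2 exceeded Omd in 5 of 6 and Aspn exceeded Fmod in 4 of 6.

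**Figure D1:**
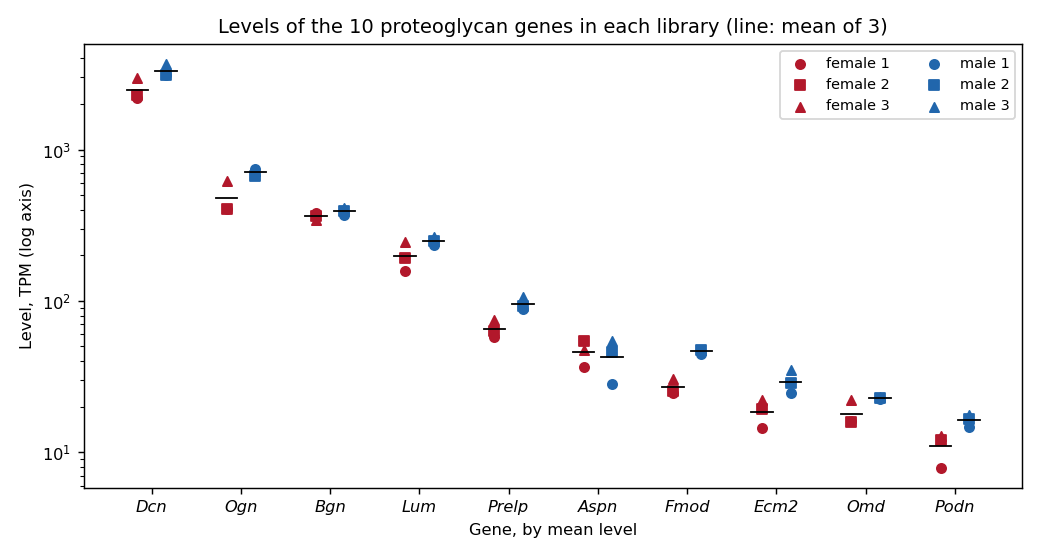
Summed TPM of each SLRP gene (x axis) in each of the 6 libraries on a log axis (y axis), one point per library and coloured by sex. Dcn lies above all other members in every library, and Podn, with a mean of 13.6 TPM, lies at the bottom of the order.

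The libraries held 55272138 to 77610593 estimated reads, and a gene with no read could still have had 3, or 0.0543 CPM (reads scaled to a fixed library total) in the shallowest library, by counting error alone. The replicates were different animal pools, and the 6 pairs of libraries within a sex each differed by more than sampling noise. Schwann cell and nerve fibroblast markers were present in all libraries, at 7050 to 19034 and at 2152 to 3755 TPM in sum. Skeletal muscle markers stood apart in female library 2 (1513 TPM in sum) and male library 1 (775 TPM) against 11.5 to 31.4 TPM in the other 4, so results are also given without these 2 libraries where that changes them. Adipocyte markers summed to 789, 2509 and 1243 TPM in female libraries 1 to 3. In male libraries 1 to 3 they summed to 1060, 1009 and 1653 TPM. Markers of tendon, cartilage and bone, tissues also rich in SLRPs, were uneven. The matrix protein genes Thbs4 (mean 154 TPM), Comp (4.01 TPM) and Col2a1 (1.51 TPM) and the bone regulator Runx2 (12.7 TPM) were present, whereas the tendon regulator Scx had a mean of 0.158 TPM, the corneal and tendon SLRP Kera 0.0265 TPM and the cartilage proteoglycan Acan 0.00694 TPM.

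Female means lay below male means for most of the SLRP genes, and the difference passed the test in Fmod. The 10 genes together took 0.353%, 0.342% and 0.443% of all estimated reads in females and 0.493%, 0.468% and 0.508% in males, so the groups did not overlap in this share. Most of it was Dcn, which alone took 0.203%, 0.198% and 0.265% in females and 0.288%, 0.273% and 0.310% in males. All 10 genes were kept by the filter on low counts. By edgeR's quasi-likelihood test on all 19129 genes kept, 9 members had a female minus male log2 fold change below 0 and 1, Aspn, above it, against 46.4% of all genes tested below 0. The median over the members was -0.49, and that over all genes tested 0.016. At a Benjamini-Hochberg adjusted p under 0.05 only Fmod was called, while the share of all genes called lower in females was 0.0941%. An unadjusted p under 0.05 was reached by 7 members, all lower in females, against 8.74% of all genes. In TMM-scaled CPM every female library lay below every male library for 8 members, all but Aspn and Omd, against 11.6% of all genes tested, and the reverse held for none of the members, against 9.63%. In TPM the same held for 7 members, all but Bgn, Lum and Aspn, against 10.9%. These shares are read as background to the counts only, since the members were chosen with the contrast known.

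**Figure D2:**
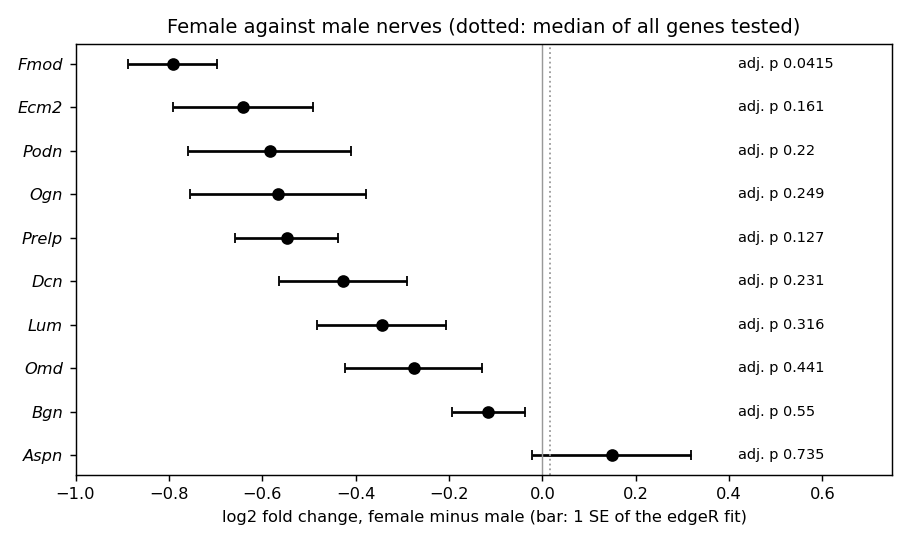
Female minus male log2 fold change of each SLRP gene with its SE (bars), from edgeR's quasi-likelihood test on 3 female and 3 male libraries, with the adjusted p over all genes beside each. Of the 10 points 9 lie below 0, with Fmod lowest at -0.79 and Aspn, at 0.15, above 0.

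In the class of fibromodulin, the largest of the 4 sex differences was in Fmod itself, whose protein binds collagen I and directs its cross-linking. Fmod stood at 52.5, 54.8 and 66.5 CPM in the females and at 103, 100.3 and 97.6 CPM in the males, or 57.9 ± 7.51 against 100.3 ± 2.73 (SD, n = 3 libraries each). The highest female lay well under the lowest male, and the male mean was 1.73 times the female mean. Its log2 fold change was -0.79 (SE 0.096, adjusted p 0.0415 by edgeR's quasi-likelihood test). The call stood close to the threshold: leaving out female library 1, female library 2 or any one male library, or both libraries with muscle transcripts, ended it, with adjusted p from 0.110 to 0.190 and the direction kept. DESeq2 gave an adjusted p of 3.15e-09 and limma-voom also called Fmod, as its one member, against 0.0993% of all genes called lower by it.

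Prelp, the neighbour of Fmod on chromosome 1, stood at 142, 158 and 187 CPM in the 3 female libraries and at 236, 225 and 251 CPM in the males, with no overlap. Its log2 fold change was -0.55 (SE 0.11, adjusted p 0.127). Lumican shares collagen binding sites with fibromodulin, and Lum gave 191, 218 and 284 CPM in females against 299, 289.6 and 291 CPM in males. Female library 3 came close to the males, and the log2 fold change was -0.34 (SE 0.14, adjusted p 0.316). It was -0.22 without female library 1 and -0.52 without female library 3. Omd, best known from bone, was low in this nerve. Its libraries gave 11.6, 9.57 and 14.2 CPM in females against 15.3, 14.5 and 13.0 CPM in males, where female library 3 exceeded male library 3 (log2 fold change -0.28, SE 0.15, adjusted p 0.441, or -0.15 without female library 2, -0.43 without female library 3 and -0.097 without the 2 libraries with muscle transcripts).

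In the decorin class, Dcn stood at 1991, 1973 and 2604 CPM in the females and at 2972, 2755 and 3103 CPM in the males. The groups did not overlap, but female library 3 lay nearer to the males than to the other females, and the log2 fold change of -0.43 (SE 0.14) had an adjusted p of 0.231. Bgn, which signals through toll-like receptors when soluble, had the smallest difference of the 9 members below 0. Its values were 571, 545 and 516 CPM in females and 597, 582 and 590 CPM in males, a log2 fold change of -0.12 (SE 0.079, adjusted p 0.550), and in TPM the groups overlapped.

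Ecm2 and Aspn, neighbours on chromosome 13, differed in sign. Ecm2 stood at 28.9, 36.2 and 43.4 CPM in the females and at 51.6, 54.8 and 62.8 CPM in the males, without overlap (log2 fold change -0.64, SE 0.15, adjusted p 0.161). Aspn, whose protein binds collagen and TGF-beta and lacks glycosaminoglycan attachment, gave 32.1, 38.9 and 36.3 CPM in females and 23.9, 35.7 and 37.2 CPM in males. The groups overlapped, and the log2 fold change of 0.15 (SE 0.17, adjusted p 0.735) was -0.023 without male library 1.

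Ogn lies on the same stretch of chromosome 13 and stood at 416, 350 and 574 CPM in the females against 756, 632 and 596 CPM in the males. The groups were separated by a narrow gap between female library 3 and male library 3 (log2 fold change -0.57, SE 0.19, adjusted p 0.249, or -0.31 without the 2 libraries with muscle transcripts). Podn, whose product has been studied in smooth muscle growth, rounded off the family with 16.9, 26.1 and 27.6 CPM in females and 34.7, 34.5 and 36.6 CPM in males. Female library 1 was the lowest by a wide margin, and the log2 fold change was -0.58 (SE 0.17, adjusted p 0.22). For Ecm2, Aspn, Omd and Ogn the gene Cenpp overlaps on the other strand, at a mean of 1.34 CPM, and Podn overlaps Scp2 (160.8 CPM) on its own strand. These are overlaps of whole gene spans, introns included, and whether exons overlap was not examined. The sources used here do not state the strand setting of the counting. Reads of any exon that overlaps Cenpp therefore cannot be told apart with certainty. For Podn and Scp2, which share a strand, strand alone could not separate the reads of any shared exon.

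Libraries of one sex differed among themselves in ways most members shared. Female library 3 was the highest female for 8 of the 10 members, in CPM and in TPM alike. Female library 1 was the lowest of all 6 libraries in CPM for 5 members and female library 2 for 3. The highest CPM fell on male library 1 for 5 members and on male library 3 for 4, whereas in TPM male library 3 was highest for 9. The ratio of Dcn to Bgn in TPM, taken within each library, was 5.76, 6.23 and 8.62 in females and 8.43, 7.88 and 8.95 in males, with female library 3 inside the range of the males. DESeq2, run as an alternative, called 6 members lower in females (Fmod, Ecm2, Prelp, Dcn, Ogn and Podn), against 3.34% of all genes called lower by it.

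**Figure D3:**
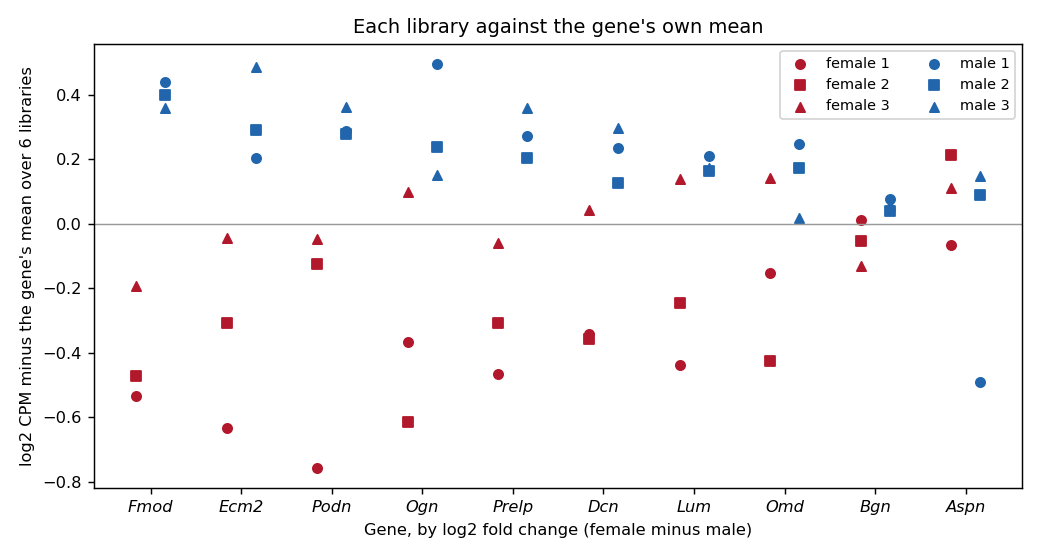
Log2 CPM of each SLRP gene in each of the 6 libraries minus that gene's own mean over the libraries, one column of points per gene, with red for female and blue for male. Most members lie below 0 in female libraries 1 and 2 and above 0 in the male libraries, with Aspn as the exception in male library 1, where it stood at 23.9 CPM.

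Markers of Schwann cells, nerve fibroblasts and perineurial cells lay mostly below 0 in the female minus male comparison, as most members did. Summed Schwann cell markers reached 7050 to 11176 TPM in females and 15356 to 19034 TPM in males, with 10 of 10 markers below 0 in the female minus male comparison (median log2 fold change -0.61, or -0.38 without the 2 libraries with muscle transcripts). The sum of 13 nerve fibroblast markers was 2152 to 2852 TPM in females and 3010 to 3755 TPM in males, with 11 of 13 below 0 (median -0.28). Of this sum Gsn alone held a mean of 1000 TPM in females and 1348 TPM in males. Pdgfra (0.068) and Dpp4 (0.11) lay above 0, and Cd34 (-0.094) and Osr2 (-0.026) close to it. Perineurial markers summed to 447 to 531 TPM in females and 575 to 621 TPM in males, with 9 of 9 below 0 (median -0.33). Macrophage markers, at 2089 to 3598 TPM in females and 1811 to 2707 TPM in males, overlapped between the sexes. All 9 lay above 0 (median 0.20, or -0.10 without the 2 libraries with muscle transcripts). Tendon markers summed to 142 to 157 TPM in females and 167 to 178 TPM in males, and the 5 kept by the filter, of 7 listed, all lay below 0 (median -0.95, or -0.48 without those 2 libraries). The sum was mostly Thbs4, with means of 143 TPM in females and 165 TPM in males and a log2 fold change of -0.19. The median was that of Tnmd, at a mean of 0.771 TPM, so sum and median describe different genes. Among the 5 kept the female mean of Comp was 3.32 ± 0.690 CPM and its male mean 10.7 ± 2.60 CPM, a log2 fold change of -1.68 (adjusted p 0.0626 by edgeR). Cartilage and bone markers summed to 14.4 to 16.3 TPM in females and 12.2 to 17.0 TPM in males, and 3 of the 4 kept, of 10 listed, lay below 0 (median -0.45), with Col2a1, also one of the fibrillar collagens below, at -0.86 and Runx2 above 0 at 0.23. At an adjusted p under 0.05 edgeR called 0 genes of these 6 lists. An unadjusted p under 0.05 was reached by 6 of 10 Schwann cell, 3 of 13 fibroblast, 6 of 9 perineurial, 3 of 5 tendon, 3 of 4 cartilage and bone and 0 of 9 macrophage markers kept, against 14.6% of all genes tested. DESeq2 called 5, 1, 4, 1, 1 and 0 of them, against 4.55% of all genes. Outside these 6 lists, most endothelial (6 of 7), mural (5 of 8) and adipocyte (8 of 8) markers kept lay above 0. So did most neutrophil (6 of 7) and all skeletal muscle markers (11 of 11). In this order the median log2 fold changes were 0.11, 0.030, 0.43, 0.51 and 0.82. Without the 2 libraries with muscle transcripts they were -0.0076, -0.14, -0.36, 0.88 and 1.71, so the endothelial, mural and adipocyte medians changed sign. The part of the cell types in the members' differences was not tested, and in whole nerve fewer cells of a type and less RNA per cell cannot be told apart.

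Besides their levels, the members were compared in transcript use, the share of a gene's TPM that each annotated transcript takes. The 10 genes had 33 transcripts in the tables, 20 of them protein-coding, 6 with a retained intron and 7 processed transcripts without an annotated reading frame. Lum and Ogn had 1 transcript each. Fmod was carried almost wholly by Fmod-201 (at least 99.4% in every library), Prelp by Prelp-201 (at least 98.8%) and Bgn by Bgn-201 (95.1% to 97.5%), so the summed level of each of these genes was nearly that of 1 transcript.

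Dcn was divided between a pair of transcripts with the same coding sequence of 1062 bases. Dcn-201 and Dcn-202 are both 1758 bases long, differ by 181 bases each and start 2758 bases apart. Dcn-201 took 58.6%, 62.0% and 60.4% of Dcn in females and 61.1%, 66.2% and 67.3% in males, or 60.4 ± 1.68% against 64.8 ± 3.30% (SD, n = 3 each). The groups overlapped, since male library 1 lay below female library 2 (edgeR diffSpliceDGE, unadjusted p 0.563). Reads were assigned to both transcripts in every library, with Dcn-201 ahead.

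Omd and Aspn also had pairs of transcripts with one coding sequence. Omd-202 holds all of Omd-201 and 693 further bases, and Omd-201 took 63.6 ± 3.03% of Omd in females and 67.0 ± 0.837% in males. Aspn-202, which differs from Aspn-201 by 44 of its own bases, took 13.5 ± 2.23% in females and 15.6 ± 2.74% in males. Such nested or near-identical transcripts share most of their reads by an estimate, whose own error the deposited tables do not carry.

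Podn was the most divided member. Podn-202 and Podn-203 encode the same protein, Podn-203 holding 223 further bases, and Podn-202 took 29.4%, 43.3% and 39.9% in females and 48.7%, 44.3% and 43.8% in males. Podn-206 took 17.0%, 15.2% and 10.4% in females and 6.95%, 8.50% and 10.02% in males, the lowest female lying just above the highest male. Testing it against the rest of the gene by edgeR's diffSpliceDGE gave an unadjusted p of 0.162. How many of all transcripts separate the groups in this way was not counted. Podn-201, whose start lies 64492 bases from that of Podn-202 and within Scp2, was listed at 0 in 5 libraries and took 7.47% of Podn, 185 estimated reads, in male library 1. Transcripts without an annotated reading frame made up 23.7 ± 4.21% of Podn in females and 15.1 ± 5.90% in males, and Ecm2-202, with a retained intron, 6.48% to 8.60% of Ecm2. Part of the Podn share rests on few reads of short transcripts. In female library 1 Podn-204 (358 bases) took 6.55% of Podn on 4.74 estimated reads, and Podn-208 (751 bases) had 6.06 to 33.0 estimated reads per library.

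Of the members' 33 transcripts, 22 in 7 genes could be tested for a sex difference in use. By edgeR's diffSpliceDGE 0 were called at an adjusted p under 0.05, and 0 had an unadjusted p under 0.05, against 0.149% and 1.70% of all 49689 transcripts tested. By limma's diffSplice 0 were called and 3, all of Bgn, had an unadjusted p under 0.05, against 0.101% and 6.51% of all transcripts. The smallest was 0.00233 for Bgn-201 (adjusted p 0.268).

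**Figure D4:**
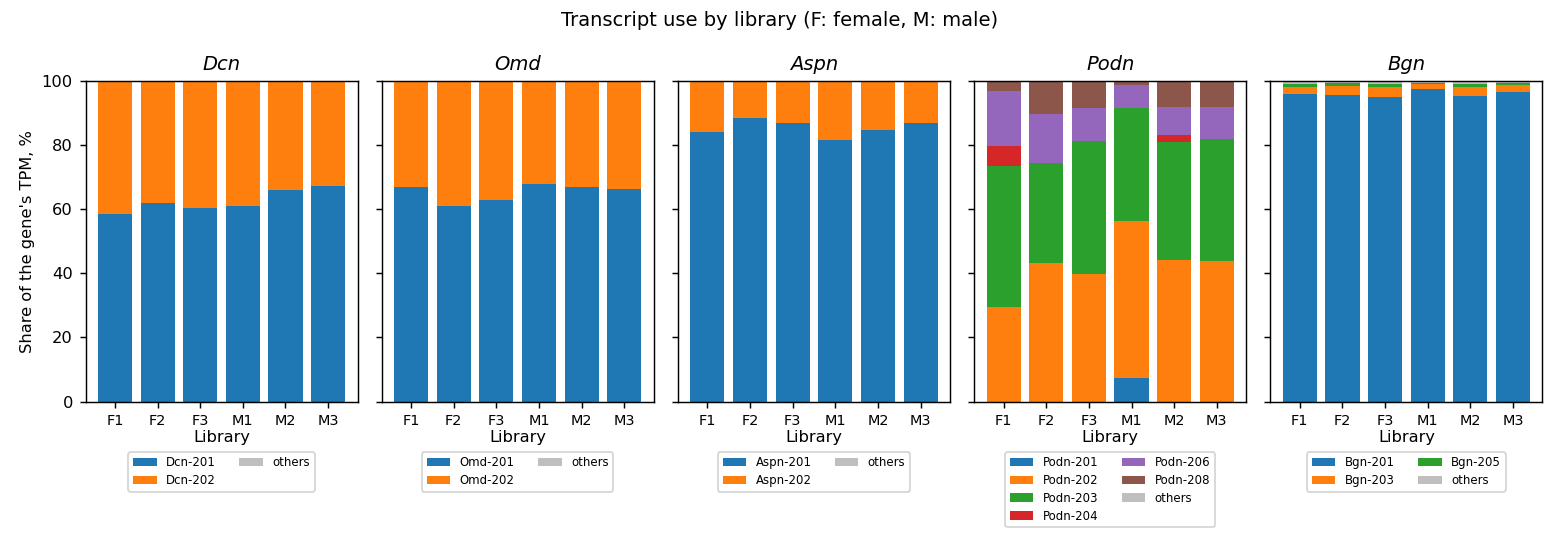
Share of a gene's TPM taken by each of its transcripts (stacked bars, percent) in each of the 6 libraries, for Dcn, Omd, Aspn, Podn and Bgn. Dcn-201 holds 58.6% to 67.3% of Dcn in every library, and Podn varies most from library to library.

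The genes around the SLRPs were described from 8 lists of 105 genes, of which 101 were kept by the filter. Of these 63 lay below 0 in the female minus male comparison. By edgeR's quasi-likelihood test 0 were called, 38 had an unadjusted p under 0.05 (14.6% of all genes tested did), DESeq2 called 25 (4.55% of all genes in either direction) and limma-voom 0 (0.136% of all genes). Values of named genes below are CPM as mean ± SD over 3 libraries, and each adjusted p is from edgeR.

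Among 8 other SLRP genes, 6 were kept, and 4 of the 6 lay below 0 (median -0.35, or -0.063 without the 2 libraries with muscle transcripts). Chadl, a chondroadherin-like collagen binder, stood at 7.87 ± 0.964 in females and 13.9 ± 1.28 in males (log2 fold change -0.82, adjusted p 0.0800). Epyc, a cartilage SLRP whose gene lies near Lum and Kera, lay above 0, at 10 ± 1.77 against 7.73 ± 0.630 (0.37, adjusted p 0.296). Tsku, a secreted modulator of TGF-beta and Wnt signals, had 23.6 ± 2.68 against 27.8 ± 2.48 (-0.23, adjusted p 0.366). Kera and Chad did not reach the filter.

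The collagens that SLRPs bind lay mostly on the same side of 0 as the members. All 11 fibrillar collagen genes were below 0 with a median of -0.51, and 8 had an unadjusted p under 0.05. Col1a1 stood at 1121 ± 42.5 in females and 2020 ± 398 in males (log2 fold change -0.85, adjusted p 0.117), and Col1a2, the partner chain of collagen I, at 1473 ± 43.5 against 2415 ± 287 (-0.71, adjusted p 0.103). Col11a1, a chain of the fibril core, had 25.3 ± 2.45 against 37.7 ± 3.35 (-0.58, adjusted p 0.108). In fibril-associated and beaded-filament collagens 10 of 11 genes were below 0, with a median of -0.38 (-0.64 without those 2 libraries). The largest difference among its named genes was in Col6a5 at 83.4 ± 19.4 against 155 ± 23.4 (-0.89, adjusted p 0.150), while Col6a1 and Col6a2, chains of the collagen VI filaments that bind decorin and biglycan, both had a log2 fold change of -0.60.

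By count of genes, enzymes that build the sugar chains showed no such side. In chondroitin and dermatan sulfate synthesis 11 of 22 genes lay below 0 and 11 above (median 0.02). Xylt1, which starts the chain on the core protein, stood at 40.1 ± 1.21 in females and 31.1 ± 3.04 in males (log2 fold change 0.37, adjusted p 0.143), whereas Chpf, a chain polymerizing factor, stood at 38.1 ± 0.217 against 44.9 ± 1.04 (-0.24, adjusted p 0.152). The sulfotransferase gene Chst15 had a log2 fold change of 0.44 (adjusted p 0.184). In keratan sulfate synthesis and tyrosine sulfation 5 of 9 genes kept lay below 0 (median -0.0066, or -0.13 without those 2 libraries). Their list summed to 258 to 282 TPM in females and 288 to 304 TPM in males, without overlap. Every female library lay below every male library in CPM for 3 of the 9, against 11.6% of all genes tested, and the reverse held for 0. Chst2, a sulfotransferase, stood at 18.7 ± 3.38 against 33.1 ± 4.90 (-0.82, adjusted p 0.127), Fut8, which adds core fucose, had a log2 fold change of -0.45 and B4galt4, a galactosyltransferase, one of -0.25.

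Of the genes for propeptide processing and collagen cross-linking, 12 of 13 lay below 0, with a median of -0.21. Lox, the cross-linking lysyl oxidase, stood at 370 ± 75.8 in females and 522 ± 14.7 in males (log2 fold change -0.49, adjusted p 0.197), and its relative Loxl4 at 12.0 ± 0.325 against 16.3 ± 2.52 (-0.44, adjusted p 0.181). Adamts2, a procollagen N-proteinase, had a log2 fold change of -0.34 (adjusted p 0.165).

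Proteases that cleave SLRPs lay on both sides, with 8 of 13 above 0 and a median of 0.25, which was -0.11 without the 2 libraries with muscle transcripts. Mmp13, a collagenase, stood at 4.63 ± 1.002 in females and 1.81 ± 0.127 in males (log2 fold change 1.34, adjusted p 0.0729), and Mmp12, the macrophage elastase, at 11.2 ± 3.68 against 3.37 ± 1.51 (1.73, adjusted p 0.152). Mmp8, a neutrophil collagenase that is also one of the neutrophil markers, stood at 38.4 ± 6.88 against 20.1 ± 4.61 (0.93, adjusted p 0.139), beside summed neutrophil markers of 2750 to 5730 TPM in females and 2017 to 4290 TPM in males; their part in it was not tested. Among SLRP receptors and bound growth factors 11 of 16 lay above 0 (median 0.16, or 0.010 without those 2 libraries). Tlr2 and Tlr4, the toll-like receptors of soluble biglycan and decorin, had log2 fold changes of 0.41 (adjusted p 0.171) and 0.45 (0.263), and the ligand Tgfb3 one of -0.29 (0.159).

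Genes outside the family were ranked by how closely their profile over the 6 libraries followed that of Fmod, as the root-mean-square difference between log2 CPM values centred on each gene's mean, over 10356 genes with a mean of at least 10 CPM. The nearest was another SLRP gene, Chadl, at 0.061, followed by Mmp15, a membrane-bound metalloprotease, at 0.069 and Serpine2, a secreted protease inhibitor, at 0.073, where the median of the pool was 0.43. Nearest to the mean profile of the members were Gas6, a ligand of TAM receptors, at 0.034, Clasp2, a microtubule-binding protein, at 0.042 and Daam2, a formin, at 0.048, with a median of the pool of 0.27. These are descriptions over 6 libraries that share the same sex groups.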

How the data were processed

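RNA of the distal sciatic nerve was measured in 3 female and 3 male libraries, stranded and poly-A selected per the labels' protocols. Trimmomatic 0.39, Salmon 1.5.2 and MultiQC 1.9 are named, without roles, in the submitters' processing notes. Per the file headers, the authors deposited for each of 140789 transcripts an estimated count of reads, not normalized, and a TPM value with the length and effective length. No source used here gives the genome build, the annotation release or the strand setting. All 33 transcripts of the members had the same length in GENCODE M21, from which positions and transcript structures were taken, and 94.8% of gene IDs matched it.

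Estimated counts were summed per gene, rounded, filtered with filterByExpr (19129 genes kept), scaled by TMM and compared, female minus male, by edgeR 4.0.16's quasi-likelihood test in R 4.3.3, with Benjamini-Hochberg adjustment over all genes and a threshold of 0.05. Library totals were 55272138 to 77610593 estimated reads. Transcript use was tested with diffSpliceDGE. Both tests were tested on simulated data. Alternatives were other scalings and filters, a length offset, DESeq2 1.42.0, limma 3.58.1 (voom, and log2(TPM + 1)), the replicate number as a block, and leaving out libraries. The members, lists, markers and tests were chosen with earlier results of these data known. All members are named, with up to 3 genes of smallest p per list (mean of at least 1 CPM) and the 3 nearest profiles.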

Additional observations from a re-analysis of the deposited data

How the results depend on the processing

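Against 1 member called by the test as reported, the count was 0 under upper-quartile scaling, library totals, a filter of 1 CPM, limma on log2(TPM + 1) or log2(TPM + 0.1), no robust estimation and without female library 2 and male library 1. It was 1 with relative log expression scaling, the length offset and voom, 2 without a filter and 6 with DESeq2. Leaving out 1 library gave 0 to 3 (Fmod, Ecm2 and Prelp without female library 3, and 0 without each of the others). The log2 fold change of Fmod lay between -0.90 and -0.73 over 19 alternatives, 6 of which called it. The log2 fold change of Aspn (0.15 as reported) lay between -0.023 and 0.26 with 1 library left out, -0.023 being without male library 1, and was -0.094 without female library 2 and male library 1. Of 190 values of members under alternatives, 167 kept their direction and their side of the threshold and 2 changed direction. Among the 101 genes of the surrounding lists, 0 were called as reported, 8 without a filter, 25 with DESeq2, 1 (Col1a1) without female library 2 and male library 1, and 0 to 5 with 1 library left out (5 without female library 3, 1 without male library 1). No transcript of the members was called in any of 11 alternatives. The cause of these shifts was not tested.

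Same-numbered female and male libraries had deviations from their group means correlated at -0.0971, -0.189 and 0.0138. These values showed no pairing by replicate number but cannot exclude one. With the replicate block 0 members were called, and Fmod had an adjusted p of 0.104 by edgeR.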

Other observations

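Ratios between members within a library, chosen after their values were seen, are given as values only, with no test. Fmod over Lum in TPM was 0.157, 0.132 and 0.125 in the 3 female libraries and 0.190, 0.190 and 0.178 in the 3 male ones, so the groups did not overlap. Ecm2 over Aspn, the neighbours on chromosome 13, was 0.395, 0.354 and 0.464 in females and 0.865, 0.623 and 0.642 in males. Prelp over Fmod, the neighbours on chromosome 1, was 2.33, 2.49 and 2.45 in females and 1.98, 1.95 and 2.24 in males. Ogn over Omd was 25.1, 25.4 and 28.2 in females and 33.1, 29.4 and 30.9 in males. Ogn over Bgn, at 1.06, 1.10 and 1.81 in females and 2.01, 1.69 and 1.76 in males, overlapped through female library 3.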
